A study of Mus musculus with 4 samples.

Results

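The genes described here carry fatty acids from outside the cell to complete oxidation in the mitochondrion, or store them on the way. The list named 43 mouse genes, chosen by function, and its members were all probe sets of the array whose annotation gave exactly 1 of these symbols. This found 76 probe sets of 40 genes, out of 34945 probe sets with 1 symbol and 45037 in all. Acsl1, Cpt1b and Ucp2 had no such probe set and are not analysed here. A gene was represented by its brightest probe set and tested where its mean reached 4.39 on the log2 scale, the 40th percentile of all probe sets. By this rule 38 of the 40 genes were tested, among 13058 genes of the whole array.

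The cells were HL-1, a beating cell line derived from a mouse atrial tumour lineage, grown to confluence on coated coverslips in Claycomb medium. Electrical pacing for 24 h drove 2 samples (stimulated 1 and 2) at 300 beats per minute, 1.5 to 2 times the rate of the 2 unpaced samples (control 1 and 2), which beat spontaneously. Each sample was measured on 1 Affymetrix array, and values are log2 levels after RMA. HL-1 is a single dividing line that stands for atrial muscle only in part, and no group was paced at the control rate, so that rate and electrical stimulation cannot be told apart. The labels name the stimulated samples experiments 1 and 2, but give no experiment for control 1 and do not say whether the controls came from separate cultures. The p-values cover only the scatter among these 4 samples, and that of the controls may be technical.

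Fatty acids are the main fuel of the working heart. Lipoprotein lipase frees them from circulating triglyceride, CD36 and fatty acid binding proteins take them up, and acyl-CoA synthetases activate them. The carnitine shuttle then carries them across the inner mitochondrial membrane, where each turn of beta-oxidation shortens the chain and passes electrons to the flavoprotein ETF and to NADH. Thioesterases undo the activation, lipid droplets hold what is not burned, and the PPAR receptors with their PGC-1 coactivators set the level of many of these genes.

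With stimulation, transcripts of 2 steps of oxidation fell and that of 1 thioesterase rose. The medium-chain acyl-CoA dehydrogenase gene Acadm (gene ID 11364) fell by 0.73 ± 0.14 (SE) on the log2 scale, a 1.65-fold lower level. Etfdh, the enzyme that hands electrons from ETF to ubiquinone (gene ID 66841), fell by 0.62 ± 0.12. Acot2, a mitochondrial acyl-CoA thioesterase (gene ID 171210), rose by 1.02 ± 0.12, or 2.03-fold. A gene is said to have risen or fallen only where its adjusted p in limma's moderated test, over all 13058 genes, was at most 0.05. By that rule 1 of the 38 tested members rose and 2 fell. Over all genes 3.91% were higher and 1.62% lower, 5.53% together, and the 3 calls in both directions among 38 members lay near that last share.

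The shift of the members as a whole was small and mostly downward. Their median change was -0.25, against -0.01 for all genes tested, and 31 of the 38 had a change below 0. Both stimulated arrays lay below both control arrays in 23 members and above them in 3, while over all genes tested 27.7% lay below and 27.6% above. An unadjusted p under 0.05 was reached by 15 members downward and 2 upward, where the shares among all genes were 11.7% downward and 13.9% upward. These counts describe the list and are no test of it.

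**Figure D1:**
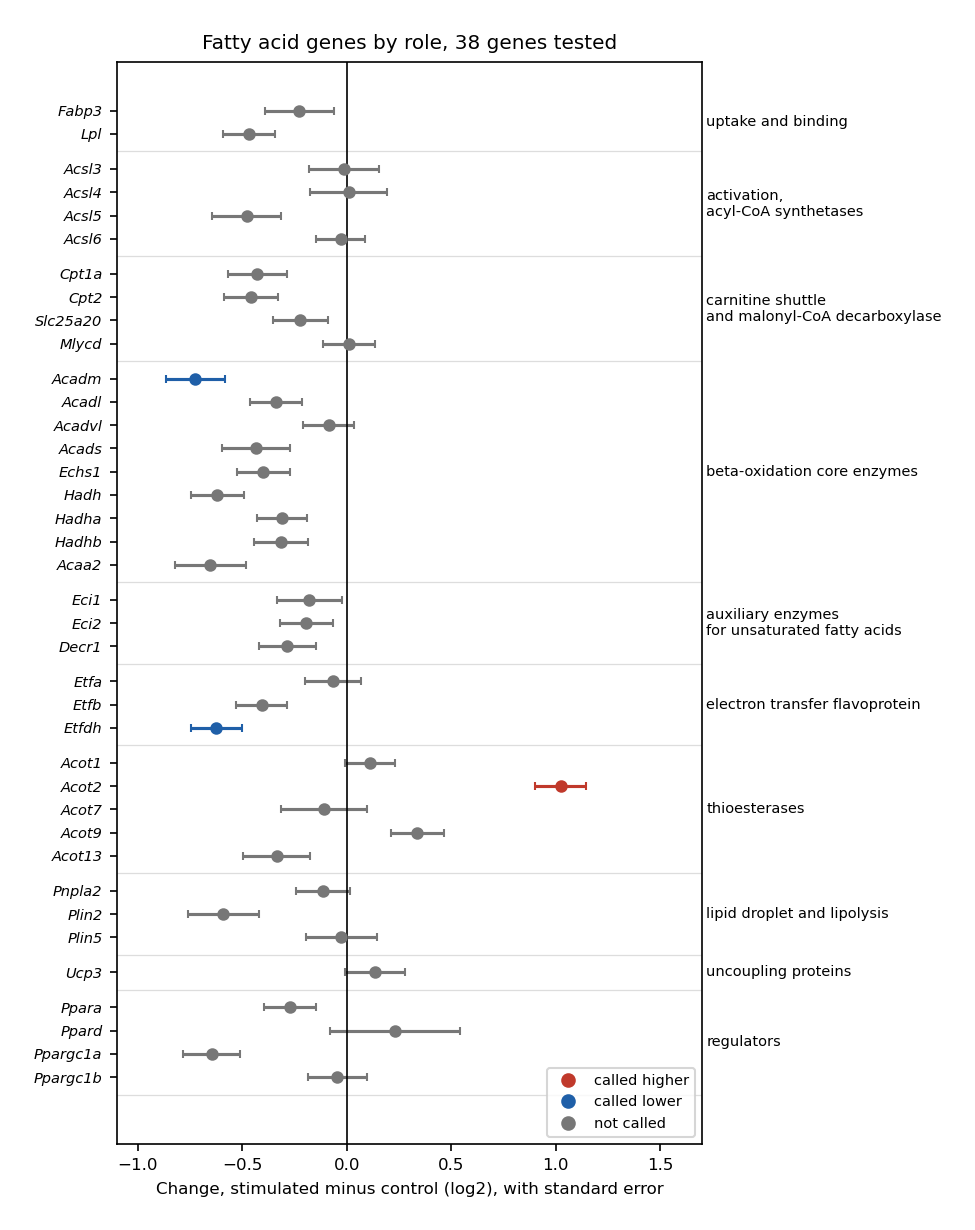
Change of each of the 38 tested fatty acid genes (x axis, stimulated minus control on the log2 scale), grouped by role, with bars for the standard error of the fit and 2 arrays in each group. The 9 core enzymes of beta-oxidation all lie left of 0, between -0.73 and -0.09, and Acot2 stands apart on the right at 1.02.

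The upstream sequences of the 3 genes that passed the test are shown because the PPAR and estrogen-related receptors are known to bind the letters AGGTCA near many genes of fatty acid oxidation. Each is the stretch of 250 bases before the gene's start in RefSeq (build GRCm38.p6), written 5′ to 3′ on the gene's strand, with AGGTCA on either strand in capitals. Acadm lies at chr3:153944644-153944893 (minus strand), Etfdh at chr3:79628768-79629017 (minus strand) and Acot2 at chr12:83987611-83987860 (plus strand).
Acadm: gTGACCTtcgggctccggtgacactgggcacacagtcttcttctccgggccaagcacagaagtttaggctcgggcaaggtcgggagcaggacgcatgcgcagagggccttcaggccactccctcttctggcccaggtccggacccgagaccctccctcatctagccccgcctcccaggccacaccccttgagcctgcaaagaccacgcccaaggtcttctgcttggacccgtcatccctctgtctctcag
Etfdh: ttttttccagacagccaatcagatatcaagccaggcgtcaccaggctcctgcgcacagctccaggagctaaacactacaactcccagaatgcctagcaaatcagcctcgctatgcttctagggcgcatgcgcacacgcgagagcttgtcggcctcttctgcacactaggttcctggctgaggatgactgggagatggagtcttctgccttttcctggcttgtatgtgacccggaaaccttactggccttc
Acot2: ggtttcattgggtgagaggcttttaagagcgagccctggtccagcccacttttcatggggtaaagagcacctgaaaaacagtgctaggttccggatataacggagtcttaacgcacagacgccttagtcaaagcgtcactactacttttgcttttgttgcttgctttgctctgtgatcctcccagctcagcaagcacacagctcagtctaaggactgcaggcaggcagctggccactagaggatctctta
The Acadm stretch held the motif once, on the opposite strand at bases -249 to -244 from the start, and those of Etfdh and Acot2 held none.

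The same stretch was searched on both strands in all 32851 RefSeq promoter windows, of which 37 belonged to 34 of the members. Acaa2, Acot13, Decr1, Fabp4, Lpl and Ppargc1b had no entry. AGGTCA occurred in 14.0% of all windows and in the windows of 9 members, namely Acadm, Acadvl, Acsl6, Cd36, Cpt1a, Echs1, Plin2, Plin5 and Ucp3. Both longer motifs searched contain AGGTCA, so they could not be more frequent than it. The estrogen-related receptor element TCAAGGTCA was found in 0.387% of windows and in 1 member, Acsl6, and the direct repeat AGGTCANAGGTCA of PPAR with RXR in 0.0335% and in 0 members. TGATGNAA, the core of a composite element for C/EBP and ATF factors, stood in 3.45% of windows and in the members Echs1 and Fabp3. These matches are descriptions of letters in a short window, and factor binding was not measured.

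Uptake was represented by Lpl and the binding proteins. Lpl, lipoprotein lipase, read 12.22 and 12.14 on the control arrays and 11.65 and 11.77 on the stimulated arrays, a change of -0.47 ± 0.13 that missed the threshold (adjusted p = 0.0855). On the mean of both Lpl probe sets it passed, at -0.61 (adjusted p = 0.0419). Both stimulated arrays were below both controls, and the second Lpl probe set changed by -0.75 (adjusted p = 0.0679 in a fit over all probe sets). Fabp3, the heart fatty acid binding protein, was at 11.46 and 11.34 in controls and 10.99 and 11.37 in stimulated cells. Its groups overlapped, since only stimulated 1 was low, and the change was -0.23 ± 0.17 (adjusted p = 0.459).

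Cd36, the fatty acid translocase, and Fabp4, the adipocyte binding protein, were not tested because every one of their probe sets lay below the filter level. The brightest Cd36 probe set read 3.26 to 3.72 on the 4 arrays, and the brightest of Fabp4 3.32 to 3.87. The lowest value on any array was 2.34, and both genes are given as levels near that floor, with no change. Of the adipocyte markers measured beside them, Adipoq, Lep, Cidec and Pparg were also below the filter level, and Retn was past it at a mean of 6.06.

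The acyl-CoA synthetases, which activate long-chain fatty acids, differed among themselves. Acsl5 read 10.59 and 10.20 in controls and 9.86 and 9.97 in stimulated cells (-0.48 ± 0.16, adjusted p = 0.142). The groups did not overlap, but the controls differed by 0.38, and the change without control 1 was -0.29. Acsl3 changed by -0.01 ± 0.17 and Acsl6 by -0.03 ± 0.12, with Acsl6 near the filter level at 4.86 to 4.90. For Acsl4 the brightest probe set changed by 0.01 ± 0.18 with overlapping groups. A second Acsl4 probe set read 8.49 and 8.31 in controls and 7.62 and 7.65 in stimulated cells, and it passed the test over all probe sets at -0.76 ± 0.13 (adjusted p = 0.0431), while the third changed by -0.38 (adjusted p = 0.198). No Acsl gene passed in the fit of 1 probe set per gene, and the Acsl4 result therefore depended on the probe set.

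In the carnitine shuttle both stimulated arrays lay below both controls for the transferases and the carrier, with none past the threshold. Cpt2, the transferase of the inner membrane, read 9.35 on both control arrays against 8.80 and 8.98 with stimulation (-0.46 ± 0.13, adjusted p = 0.0938), or -0.21 on the mean of all its probe sets, dim ones included. Cpt1a, an outer-membrane transferase at which malonyl-CoA inhibits entry, read 9.99 and 9.77 against 9.53 and 9.37 (-0.43 ± 0.14, adjusted p = 0.13). This held on the brightest probe set only: the other 2 changed by -0.07 and -0.03 with overlapping groups. Slc25a20, the carnitine-acylcarnitine carrier, changed by -0.22 ± 0.13 (adjusted p = 0.358). Mlycd, which breaks down malonyl-CoA, was level at 6.92 ± 0.08 (SD, n = 2) and 6.93 ± 0.03, a change of 0.01 with a 95% interval of -0.29 to 0.31.

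All 9 genes of the core enzymes of beta-oxidation had changes below 0, with a median of -0.40. In 8 of them both stimulated arrays lay below both controls, as did 27.7% of all genes tested. Acadm read 11.61 and 11.52 in controls and 10.71 and 10.97 in stimulated cells (adjusted p = 0.0458). The gap between its groups, 0.55, exceeded the difference of 0.26 between the stimulated arrays. The call was lost by a narrow margin without the filter on dim genes (adjusted p = 0.0503), without probe sets marked as shared (0.0509) and with arrays centred on their medians (0.052), where Hadh was called instead (0.0476). Hadh, the short-chain hydroxyacyl-CoA dehydrogenase, read 12.20 and 12.21 against 11.67 and 11.51, a change of -0.62 ± 0.13 whose adjusted p of 0.050002 lay just outside the threshold. Its second tested probe set changed by -0.46, also without overlap.

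Acaa2, a mitochondrial thiolase, had 3 probe sets that gave nearly the same change, -0.68 to -0.62. Its brightest probe set read 9.77 and 9.82 in controls and 8.93 and 9.35 in stimulated cells (-0.65 ± 0.17, adjusted p = 0.0812). Stimulated 1 was lower than stimulated 2 by 0.42, which widened the error. The other acyl-CoA dehydrogenases, each for another chain length, changed less than Acadm. Acads, for short chains, read 9.42 and 9.50 against 8.83 and 9.22 (-0.43 ± 0.16, adjusted p = 0.17), and without stimulated 1 its change was -0.24. Acadl, for long chains, read 12.08 and 12.12 against 11.70 and 11.82 (-0.34 ± 0.12, adjusted p = 0.161). Acadvl, for very long chains, was the one core enzyme whose groups overlapped (-0.09 ± 0.12).

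The remaining core enzymes lay between these. Echs1, the short-chain enoyl-CoA hydratase, changed by -0.40 ± 0.13 (adjusted p = 0.117), from 10.75 and 10.62 to 10.32 and 10.26. Hadha, the alpha subunit of the trifunctional protein that handles long chains, read 10.99 and 10.91 against 10.66 and 10.61 (-0.31 ± 0.12, adjusted p = 0.179). Hadhb, its beta subunit, read 11.22 and 11.38 against 10.94 and 11.03 (-0.32 ± 0.13, adjusted p = 0.196). The subunits changed by like amounts on their brightest probe sets, but the other 2 probe sets of Hadhb changed by 0.09 and 0.02 with overlapping groups.

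Of the enzymes that prepare unsaturated fatty acids for oxidation 0 of 3 passed the test or reached an unadjusted p under 0.05. Decr1, the dienoyl-CoA reductase, changed by -0.29 ± 0.14 (adjusted p = 0.263), and the enoyl-CoA isomerase genes Eci1 and Eci2 by -0.18 ± 0.16 and -0.19 ± 0.13. The stimulated arrays of Decr1 and Eci2 lay below the controls, and those of Eci1 overlapped them, where 27.7% of all genes tested lay below.

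The ETF system takes the electrons of the acyl-CoA dehydrogenases, and its 3 genes gave changes from -0.62 to -0.07. Etfdh read 10.70 and 10.66 in controls and 10.02 and 10.09 in stimulated cells (adjusted p = 0.0442). Replicates differed by 0.04 in controls and 0.06 in stimulated cells, and the groups were 0.57 apart. With its second, dim probe set (3.09 to 3.18) averaged in, Etfdh was not called (-0.33, adjusted p = 0.116). Etfb, the beta subunit, read 11.41 and 11.37 against 10.93 and 11.04 (-0.41 ± 0.12, adjusted p = 0.108). Etfa, the alpha subunit of the same protein, was at 11.21 and 11.00 against 11.04 and 11.04, a change of -0.07 ± 0.13 with a 95% interval of -0.39 to 0.26. The difference between the subunits was not tested.

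**Figure D2:**
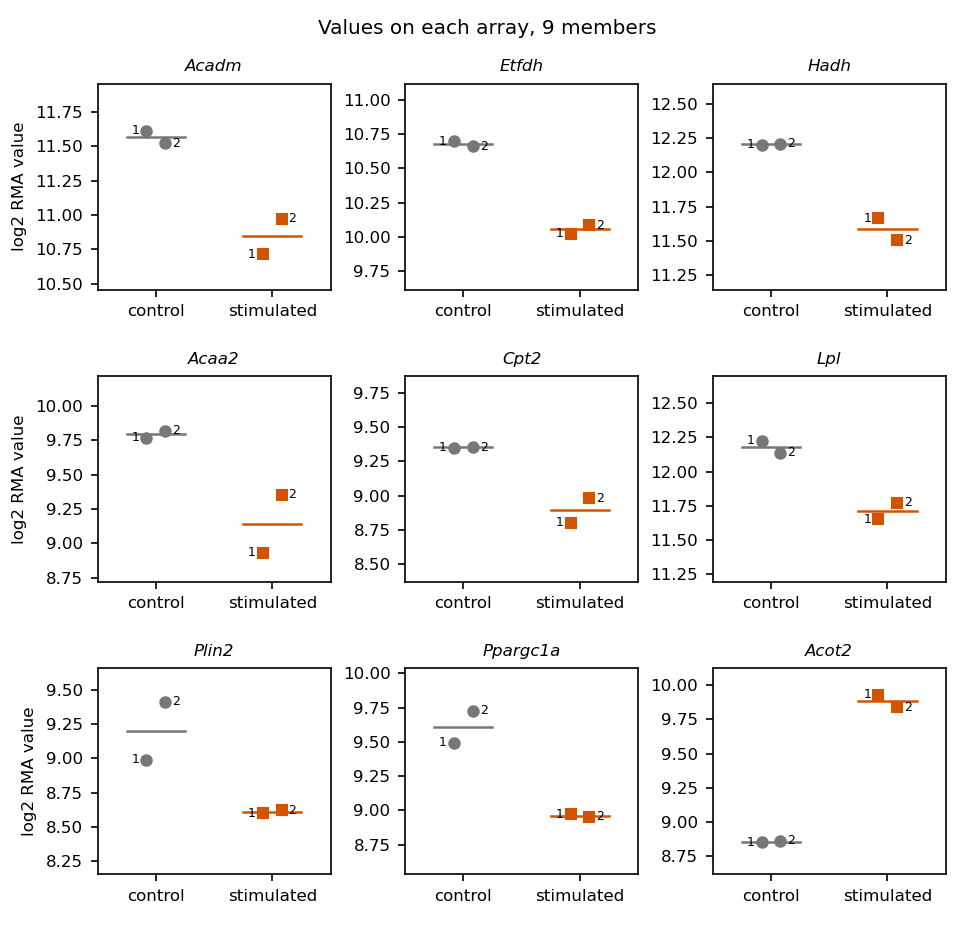
Log2 RMA values (y axis, each panel spanning 1.5 units around its gene's mean) of 9 members on the control arrays (circles) and stimulated arrays (squares), numbered by replicate, with lines at the group means. The panels were picked from the 38 members tested, of which 23 lie below the controls, 3 lie above and 12 overlap. Of all genes tested 27.7% lie below and 27.6% above. In each panel shown the groups do not overlap. Acot2 is the one panel in which the stimulated arrays, at 9.93 and 9.84, lie above the controls, at 8.85 and 8.86.

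The thioesterases, which release free fatty acid from acyl-CoA, were the role with most members above 0. Acot2 read 8.85 and 8.86 in controls and 9.93 and 9.84 in stimulated cells (adjusted p = 0.0214), and its groups were 0.97 apart. A dimmer Acot2 probe set read 5.95 and 5.96 against 6.15 and 6.29, a change of 0.26 ± 0.13 that was in the same direction but not called (adjusted p = 0.286). The mean of both gave 0.64 and was called (adjusted p = 0.0307). Acot1, the cytosolic paralog, read 6.32 and 6.36 against 6.44 and 6.46 (0.11 ± 0.12, adjusted p = 0.628). Acot1 and Acot2 are close paralogs that probes can share, and a probe set annotated to both was left out by the rule. Acot9, a mitochondrial thioesterase, read 9.88 and 9.92 against 10.32 and 10.16 (0.34 ± 0.13, adjusted p = 0.169). Acot13, a small thioesterase found at mitochondria, read 10.27 and 10.43 against 9.85 and 10.18 (-0.34 ± 0.16, adjusted p = 0.252), and without stimulated 1 its change was -0.17. Acot7, a mainly cytosolic thioesterase, changed by -0.11 ± 0.21, less than its replicates differed, by 0.31 in controls and 0.49 in stimulated cells.

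Among the droplet genes, Plin2, which coats lipid droplets, read 8.99 and 9.41 in controls and 8.60 and 8.62 in stimulated cells (-0.59 ± 0.17, adjusted p = 0.0978). The stimulated arrays were close together and below both controls, which themselves differed by 0.42, and the change without control 2 was -0.38. Pnpla2, the triglyceride lipase ATGL, changed by -0.11 ± 0.13, and Plin5, the perilipin of oxidative tissue, by -0.03 ± 0.17. Ucp3, an uncoupling protein of muscle mitochondria, changed by 0.14 ± 0.14 on the brighter of its probe sets and by -0.16 on the other.

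Of the regulators, Ppargc1a, the coactivator PGC-1 alpha, came closest to the threshold. It read 9.49 and 9.73 in controls and 8.97 and 8.95 in stimulated cells, a change of -0.65 ± 0.14 (adjusted p = 0.0518). All 5 of its probe sets changed downward, but the other 4 only by -0.31 to -0.13, and 2 of these overlapped between groups. On the mean of all 5 the change was -0.30 (adjusted p = 0.184). Ppara, the receptor that drives fatty acid oxidation genes in the heart, read 7.60 and 7.49 against 7.24 and 7.30 (-0.27 ± 0.12, adjusted p = 0.239), with -0.27 and -0.21 on its other probe sets. Ppargc1b, the related coactivator PGC-1 beta, changed by -0.05 ± 0.14 with overlapping groups. Ppard, a receptor widely expressed in muscle, changed by 0.23 ± 0.31, and its replicates differed by 0.67 in controls and 0.74 in stimulated cells, the widest of any member tested.

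**Figure D3:**
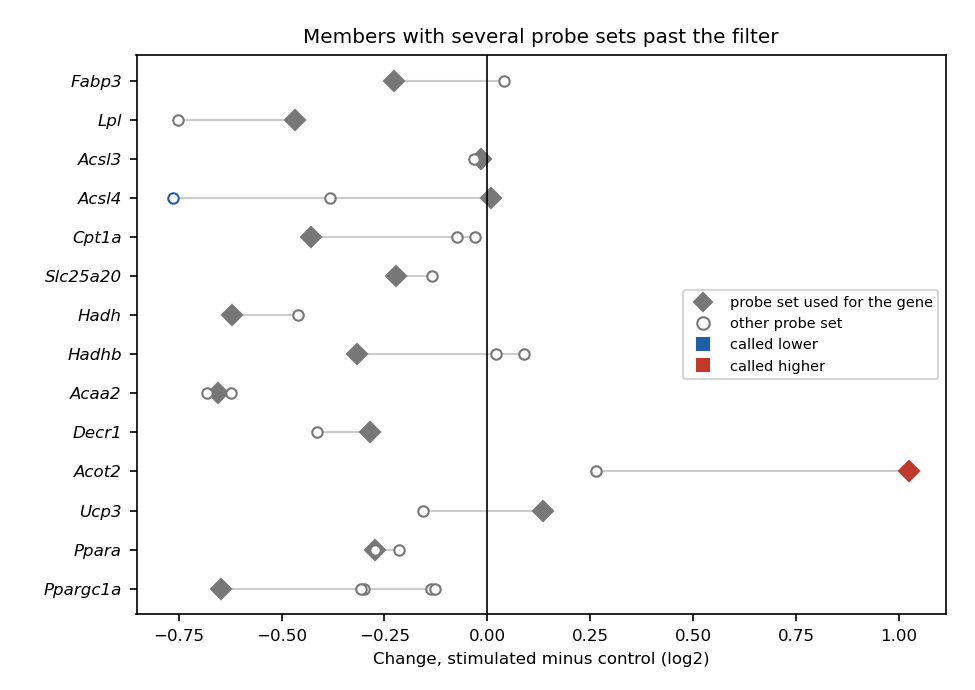
Change (x axis, stimulated minus control, log2) of every probe set past the filter for the 14 members with more than 1. Diamonds are the probe sets used for the genes and open circles the others, coloured where called over all probe sets; the probe sets of Acaa2 and Ppara lie close together, while Acsl4, Acot2 and Ppargc1a each span over 0.5.

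Across the 60 member probe sets past the filter, 49 changed downward and 11 upward. In a fit over all 27022 probe sets past the filter, in which 3.85% were called, 2 member probe sets passed, 1 of Acot2 upward and 1 of Acsl4 downward. Acadm and Etfdh narrowly missed the threshold in that fit (adjusted p = 0.0546 and 0.0538). Of the 14 members with several tested probe sets, all probe sets shared 1 sign in 10, and in 9 of these the sign was negative. The changes of 1 gene's probe sets spanned over 0.5 in 3 members, Acsl4, Acot2 and Ppargc1a.

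With any 1 of the 4 arrays left out, 0 members passed in limma, where the lone array of a group is assumed to vary like the other group. Across those 4 fits the adjusted p of Acot2 ran from 0.0547 to 0.133, that of Acadm from 0.0687 to 0.199 and that of Etfdh from 0.091 to 0.211. Their changes kept their signs and ran from 0.98 to 1.07 for Acot2, from -0.85 to -0.60 for Acadm and from -0.66 to -0.59 for Etfdh. That of Acadm moved most. The members' median was -0.34 without stimulated 2 and -0.17 without stimulated 1. Stimulated 1 was the lower of the stimulated arrays in 26 of the 38 members, against 46.0% of all genes tested.

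Genes along the rest of the pathway were read from further lists, written with earlier results of these data known. Some genes stand in more than 1 list. Over all genes tested, 11.7% had an unadjusted p under 0.05 in limma's test downward and 13.9% upward. Of 14 other uptake and carnitine genes, 0 rose and 0 fell, with a median of -0.12, and 4 reached that p downward and 2 upward. Of 17 peroxisomal oxidation genes 0 were called (median -0.04), and 4 reached it downward and 1 upward. Other mitochondrial enzymes of acyl-CoA breakdown were below 0 in 16 of 18 cases (median -0.19, 0 called). Of these, 6 reached an unadjusted p under 0.05 downward and 1 upward. Of 25 genes of triglyceride synthesis, droplets and lipases 0 were called (median -0.12), with 7 at an unadjusted p under 0.05 downward and 3 upward. Of 6 other thioesterases 0 were called (median -0.05), with 1 at an unadjusted p under 0.05, upward.

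Where 3.91% of all genes tested were called higher and 1.62% lower, the list of synthesis and desaturation held calls in both directions. Of its 21 genes, the desaturase genes Fads2 and Scd2 fell by 0.74 ± 0.13 and 0.85 ± 0.16 (adjusted p = 0.0373 and 0.0449). Their relative Fads3 rose by 0.75 ± 0.14 (adjusted p = 0.0442), and the median of the list was -0.14. Among 24 other regulators, Prkab2, a regulatory subunit of the energy sensor AMPK, rose by 1.57 ± 0.21 (adjusted p = 0.025), from 7.73 and 8.08 to 9.23 and 9.72, and 0 fell. That list's median was 0.08.

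Among 7 other genes known as PPAR alpha targets, Fgf21, which encodes a hormone also induced by ATF4, rose by 3.53 ± 0.12 and 0 fell. The list's median was 0.25, with 5 changes above 0 and 2 below. The 6 genes other than Fgf21 were not called and ran from -0.70 to 0.45. Over all genes tested 3.91% were called higher.

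**Figure D4:**
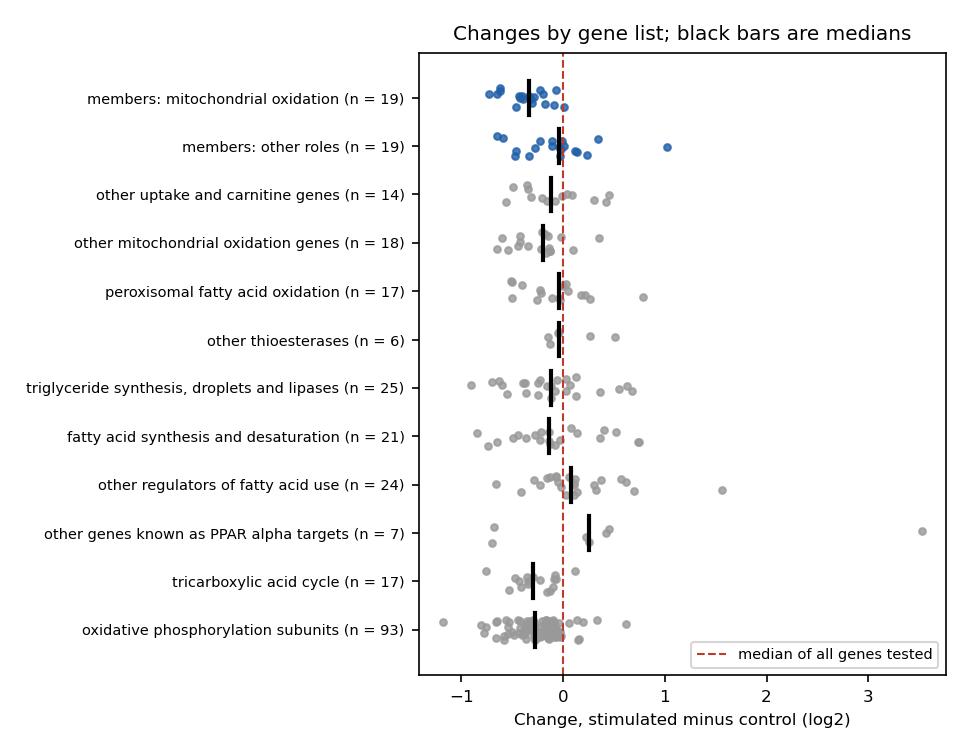
Change of each gene tested (points, spread vertically for legibility, x axis stimulated minus control on the log2 scale) in the members and in the further lists, with black bars at the medians and a dashed line at the median of all genes, -0.01. The 19 members of mitochondrial oxidation, the tricarboxylic acid cycle and oxidative phosphorylation have medians of -0.34, -0.30 and -0.27, and the 19 other members -0.05. The list labelled oxidative phosphorylation subunits also holds assembly factors.

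By role, the members split into mitochondrial oxidation and the rest. The shuttle, core, auxiliary and ETF genes together had a median of -0.34, with 18 of 19 below 0, and the other 19 tested members one of -0.05, with 13 below 0. The rest included Acot2, Acot9, Acot13 and Ucp3, whose products are also mitochondrial, so the split is not one of location. The difference between these parts of the list was not tested. Mitochondrial genes outside fatty acid oxidation had like medians. Of 17 genes of the tricarboxylic acid cycle, 16 were below 0 with a median of -0.30. Of 93 genes of oxidative phosphorylation, subunits together with assembly factors such as Ndufaf1 and Sdhaf1, 86 were below 0 with a median of -0.27. Over all genes tested 6644 of 13058 were below 0. The test was passed by 1 gene of the cycle and 3 of oxidative phosphorylation, all downward, where 1.62% of all genes tested were called lower. Sdhd, which stands in both lists, fell by 0.76 ± 0.15, and Ndufb3 and Cox8b fell by 0.80 ± 0.16 and 0.78 ± 0.14.

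Markers of atrial muscle moved as well, and their part in the members' shift was not tested. All 13 markers were past the filter, with a median change of -0.48. Where 3.91% of all genes tested were called higher and 1.62% lower, 1 marker rose (Nppa) and 3 fell (Gja5, Tbx5 and Ryr2). The summed linear level of the 13 was 67793 and 67875 in controls and 54380 and 64510 in stimulated cells. Markers of endothelium, fibroblasts and adipocytes summed to at most 319 on any array, and those of leukocytes to 214 and 311 in controls and 371 and 411 in stimulated cells. Of the 8 leukocyte markers 4 were past the filter and 1 rose, Cd68, a lysosomal protein of macrophages (2.08 ± 0.23). Of the ventricular and skeletal muscle markers 5 of 8 were past the filter and 1 rose, the skeletal actin gene Acta1 (3.62 ± 0.15). In such bulk samples fewer cells of a type and less RNA per cell cannot be told apart.

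Of all genes tested, 510 rose and 212 fell, so rises made up 70.6% of calls. Centring every array on the median of the genes tested, which moved the median change of all genes to -0.07, gave 852 calls with 55.3% rises. Arrays of a group correlated at 0.989 or more and arrays of different groups at 0.968 to 0.975 across genes, which are not independent replicates.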

How the data were processed

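RNA of 4 HL-1 samples, 2 stimulated and 2 control, was hybridised to 1 array each. The deposited values are on the log2 scale and were made by the authors with RMA, per the submitters' processing notes; its version and settings are not given in the sources used here. Array medians were 4.95 to 5.01. Of 45101 probe sets, 64 manufacturer's controls were left out; 34945 of the rest had 1 symbol, 932 several and 9160 none in the platform annotation. Gene IDs of 34741 were found in RefSeq (GRCm38.p6) and 0 symbols changed.

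A gene's value was that of its brightest probe set (highest mean over the arrays), kept at or above the 40th percentile of all probe sets. The comparison used lmFit and eBayes of limma 3.58.1 (R 4.3.3). P-values are two-sided and were adjusted by the Benjamini-Hochberg method across all 13058 genes, with calls at 0.05 or below. A second fit took all 27022 probe sets past that level. Intervals are 95% intervals of the fit. With 2 arrays a group, the smallest two-sided p of an exact permutation test is 0.333, and none was run. The number of arrays limits the precision. All members were named, and of other lists up to 4 called genes each, with the markers named after their values were seen. Members and lists were chosen with earlier results of these data known. The model was tested on simulated data. Alternatives were another filter, summary, centring or prior, and leaving out each array.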

Additional observations from a re-analysis of the deposited data

How the results depend on the processing

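The members' median change stayed below 0 under every alternative run, from -0.34 without stimulated 2 to -0.17 without stimulated 1, and was -0.31 with arrays centred on the median of the genes tested, an alternative chosen after seeing the data. The count of members higher was 1 under every other alternative and 0 to 0 with 1 array left out. The count of members lower was 1 with no filter and with probe sets limited to those without the suffixes for shared matches (Etfdh in both). It was 4 with the 60th percentile filter, an intensity trend, a robust prior and centring on the genes tested (Acadm, Etfdh, Hadh and Ppargc1a), 3 with the mean of all probe sets (Acadm, Hadh and Lpl), 2 with arrays centred on their medians (Etfdh and Hadh), and 0 to 0 with 1 array left out. Over all genes 722 were called, and 20 to 113 with 1 array left out. The cause was not tested. Lists other than the members were not refitted.

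The change turned sign in 9 members, whose main changes ran from -0.11 (Acot7) to 0.23 (Ppard), and in 29 members it did not. With the mean of all probe sets Acsl3 changed by 0.0249, Acsl4 by -0.38, Plin5 by 0.10 and Ucp3 by -0.0098. With centring on the genes tested Acsl4 changed by -0.0543 and Mlycd by -0.0523. With 1 array left out Acsl3 ran from -0.21 to 0.18, Acsl4 from -0.23 to 0.24, Mlycd from -0.0431 to 0.0636, Etfa from -0.17 to 0.0387, Acot7 from -0.35 to 0.14, Plin5 from -0.23 to 0.18, Ppard from -0.14 to 0.60 and Ppargc1b from -0.17 to 0.0793. No paired analysis was possible because the labels number the stimulated samples but give a number to only 1 of the controls.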
